A study of Mus musculus with 6 samples.

Results

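The genes described here are 10 markers of resident macrophages and monocytes, taken as a list of symbols and matched to Ensembl IDs: C1qa, C1qb, C1qc, Csf1r, Adgre1, Mrc1, Cd163, Lyz2, Ccr2 and Cd5l. All 10 were found among the 54232 gene IDs of each count file, and all 10 were among the 15763 genes that passed the filter on low counts. RNA came from the esophagus of mice that had drunk the carcinogen 4-nitroquinoline 1-oxide (4-NQO), which causes esophageal squamous cell carcinoma. The treated group received DTA-1, which activates GITR, a co-stimulatory receptor of T cells, and the control group received an isotype antibody, with 3 libraries in each group. Mice of the DTA-1 group and of the isotype group shared the rest of the schedule: 100 µg/ml 4-NQO from 8 weeks of age for 16 weeks, plain water for 12 weeks, and intraperitoneal injections of 10 µg antibody 2 times a week over the last 2.5 weeks. The sources used here do not give strain, sex or genotype. The sources name esophagus enriched for invading cells as the tissue and do not say whether each library is a separate mouse, so the p-values speak only of the spread among these samples, part of which may be technical. The comparison asks how the macrophage and monocyte transcripts of carcinogen-exposed esophagus differ under GITR agonism.

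Macrophages of a tissue arise partly from embryonic precursors that renew locally and partly from blood monocytes, which leave the bone marrow through the chemokine receptor CCR2. Their survival depends on the receptor CSF1R and its ligands CSF1 and IL-34. Mature tissue macrophages secrete the subunits of C1q, which starts the classical complement pathway, and take up glycoproteins and hemoglobin through scavenger receptors, whereas monocytes and neutrophils carry much lysozyme.

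Stretches upstream of the annotated starts are shown for C1q chains and Cd5l because these genes gave the most alike and the most divergent patterns among the 10, and for Lyz2 and its neighbour Lyz1 because their reads can be confused. The sequences are from RefSeq on mouse build GRCm38.p6, whose upstream table holds 7 of the 10 genes. Each runs 5′ to 3′ on the strand of its gene and ends at the base before the RefSeq start. The GENCODE M21 starts behind the gene positions below differ for some genes. On the minus strand C1qc starts there at 136893065 and Lyz2 at 117282321. The C1qc and Lyz2 stretches therefore reach into those genes, and most of the Lyz2 capitals lie inside the Lyz2 gene. The coordinates are chr4:136886201-136886450 (minus strand) for C1qb, chr4:136892915-136893164 (minus strand) for C1qc, chr3:87357631-87357880 (plus strand) for Cd5l, chr10:117282273-117282522 (minus strand) for Lyz2 and chr10:117292869-117293118 (minus strand) for Lyz1.
In the C1qb, C1qc and Cd5l sequences the capitals mark GAGGAA, or TTCCTC where it lies on the other strand, the purine-rich core that ETS factors such as PU.1 recognise:
C1qb: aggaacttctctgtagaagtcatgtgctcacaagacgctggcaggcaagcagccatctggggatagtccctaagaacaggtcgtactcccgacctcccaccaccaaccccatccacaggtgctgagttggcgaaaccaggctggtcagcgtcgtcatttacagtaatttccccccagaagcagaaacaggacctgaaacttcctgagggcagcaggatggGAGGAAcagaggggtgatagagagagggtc
C1qc: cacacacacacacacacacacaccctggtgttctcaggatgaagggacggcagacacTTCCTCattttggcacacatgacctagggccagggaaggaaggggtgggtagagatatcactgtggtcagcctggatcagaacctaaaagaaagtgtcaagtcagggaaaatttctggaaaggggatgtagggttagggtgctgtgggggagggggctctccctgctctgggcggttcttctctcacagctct
Cd5l: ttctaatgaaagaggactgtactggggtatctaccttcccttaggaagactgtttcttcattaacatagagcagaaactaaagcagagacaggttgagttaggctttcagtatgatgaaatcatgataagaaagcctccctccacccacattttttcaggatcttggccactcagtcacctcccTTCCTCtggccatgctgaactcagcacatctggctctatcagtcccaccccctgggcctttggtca
In the Lyz2 and Lyz1 sequences the capitals mark the longest run that the genes share:
Lyz2: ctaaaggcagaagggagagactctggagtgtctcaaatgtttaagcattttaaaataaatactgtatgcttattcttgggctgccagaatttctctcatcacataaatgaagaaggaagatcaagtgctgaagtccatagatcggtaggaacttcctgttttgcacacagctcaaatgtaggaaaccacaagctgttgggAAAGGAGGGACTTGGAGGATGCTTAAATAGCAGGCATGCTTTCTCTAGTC
Lyz1: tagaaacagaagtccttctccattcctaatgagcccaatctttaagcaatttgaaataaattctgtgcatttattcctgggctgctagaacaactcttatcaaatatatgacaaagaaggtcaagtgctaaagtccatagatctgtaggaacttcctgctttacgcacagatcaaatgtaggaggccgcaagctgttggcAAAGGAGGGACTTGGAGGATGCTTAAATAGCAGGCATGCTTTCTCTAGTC

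The GAGGAA core, searched on both strands, was present in the upstream stretch of 4 of the 7 genes, namely Mrc1, Cd5l, C1qb and C1qc. It was present in 7639 of all 32851 upstream stretches of that length (23.3%). TGCTGA, the core of a site for MAF factors, was found for 3 of the 7 genes (Cd5l, C1qb and Lyz2) and in 16.1% of all stretches. TATAAA was found for 0 of the 7 genes and in 12.4% of all stretches. TGCTGA and GAGGAA can share letters where they meet end to end, and a match is a description of the letters alone. The shared run of Lyz2 and Lyz1 was 50 bases long, and 152 of the 250 positions were identical without gaps (60.8%).

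Total counts lay between 23766069 and 23914043 in the DTA-1 libraries and between 23147873 and 29065162 in the isotype libraries, and 3 reads, used as the floor for counting error, corresponded to 0.108 to 0.141 CPM (read counts scaled to a common library size by TMM, the trimmed mean of M values). The libraries differed in tissue makeup. The summed level of 12 striated muscle genes lay between 92306 and 134334 CPM in DTA-1 libraries and between 41267 and 87232 CPM in isotype libraries. That of 12 squamous epithelial genes lay between 8514 and 30699 CPM in DTA-1 libraries and between 34882 and 42757 CPM in isotype libraries. The 2 libraries most alike across all genes were DTA-1 replicate 1 and isotype replicate 3, which come from different groups, and still differed by more than sampling noise (median chi-square 4.00 per gene, against 0.455 for noise). With edgeR's quasi-likelihood test and Benjamini-Hochberg adjustment over all tested genes, 0 of 15763 genes passed 0.05 (0%), with 0.39 as the smallest adjusted p. Without adjustment 2006 genes (12.7%) had p under 0.05. By limma-voom 0 genes passed the adjusted threshold and 2193 the unadjusted one (13.9%), and DESeq2 called 201 of 15085 genes (1.33%).

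Among the 10 macrophage and monocyte genes, 0 passed the adjusted edgeR threshold. For 9 of them the DTA-1 and isotype libraries overlapped, and for Cd5l alone every DTA-1 library was above every isotype library, a pattern seen in 8.6% of tested genes. Groups that do not overlap in either direction occurred in 18% of tested genes. The log2 fold change of DTA-1 over isotype was negative for 7 genes and positive for 3, with a median of -0.34, and across all tested genes the median was -0.031 and 52.9% were negative. That median depended on isotype replicate 1: without it the median was 0.14, and without isotype replicate 3 it was -0.66. In bulk RNA, fewer cells of a type and less RNA per cell cannot be told apart.

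**Figure D1:**
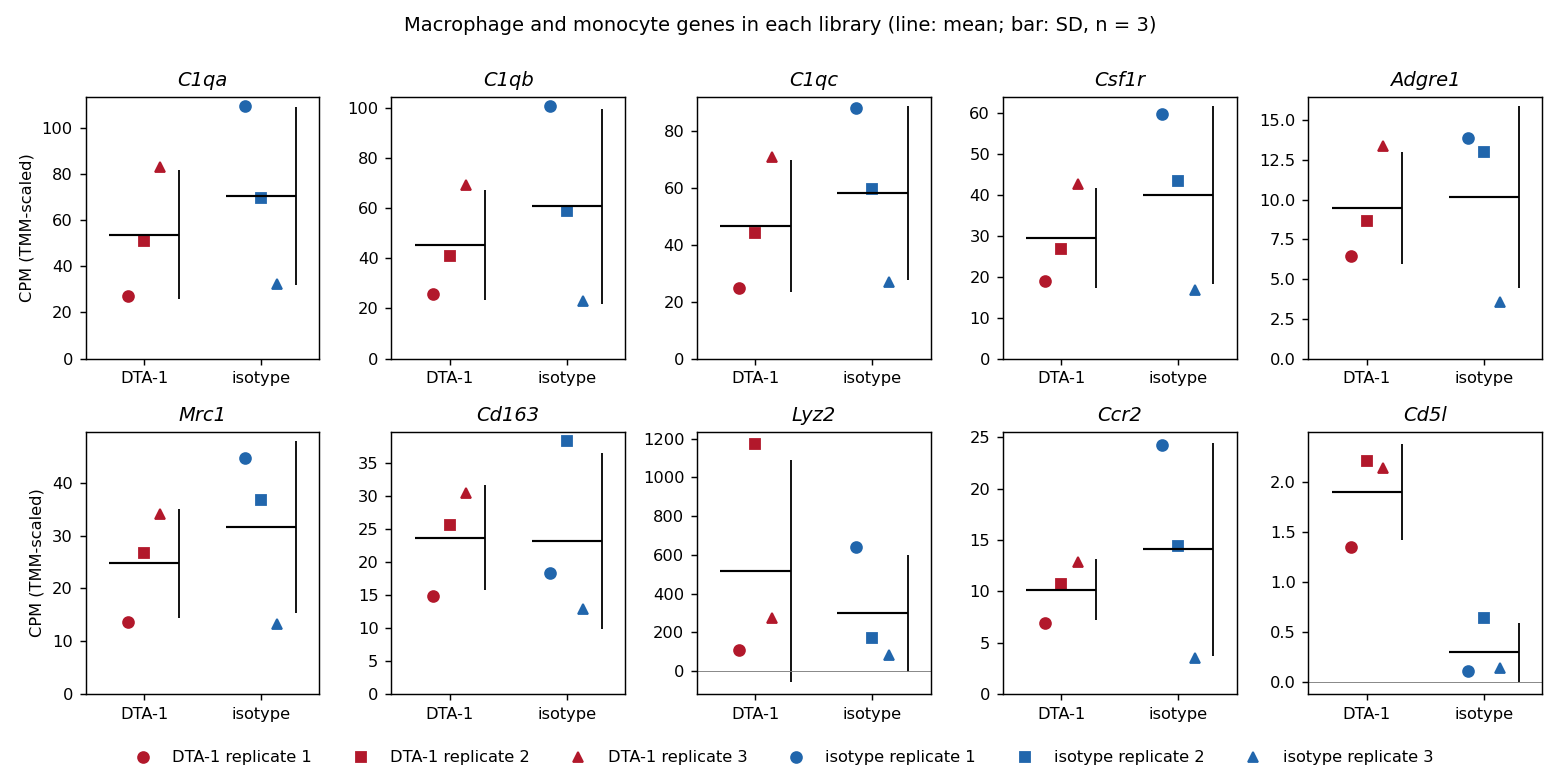
Level of each of the 10 genes in CPM (vertical axis) in the 3 DTA-1 libraries (left) and the 3 isotype libraries (right) of each panel, 1 point per library, with the mean as a line and the SD as a bar. Cd5l is the panel in which every DTA-1 point lies above every isotype point, and in most others DTA-1 replicate 1 and isotype replicate 3 are the lowest points.

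Csf1r encodes the receptor for CSF1 and IL-34 on which tissue macrophages depend (ENSMUSG00000024621, chromosome 18, 61100598 to 61132149, plus strand, GRCm38). It had 18.9, 26.8 and 42.8 CPM across DTA-1 replicates 1 to 3 and 59.9, 43.5 and 16.7 CPM across isotype replicates 1 to 3. The highest and the lowest value were both isotype libraries, and the DTA-1 values lay between them. DTA-1 over isotype, the log2 fold change was -0.44 ± 0.49 (SE, 3 libraries per group, edgeR adjusted p = 0.679), with a 95% interval of -1.59 to 0.71. Exons of Csf1r overlap those of Hmgxb3 on the opposite strand, and how the counting treated strand is not known, so reads of that overlap are uncertain.

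Adgre1 encodes F4/80, the adhesion receptor used to stain mouse macrophages (ENSMUSG00000004730, chromosome 17, 57358691 to 57483527, plus strand). Its level was 6.44, 8.62 and 13.3 CPM across DTA-1 replicates 1 to 3 and 13.9, 12.98 and 3.57 CPM across isotype replicates 1 to 3. Isotype replicate 3 stood lowest and the other isotype libraries were close to DTA-1 replicate 3. Its log2 fold change was -0.10 ± 0.53 (edgeR adjusted p = 0.942), with a 95% interval of -1.35 to 1.15. Its sign was positive under limma-voom (0.079) and when DTA-1 replicate 1 (0.12), isotype replicate 1 (0.21) or isotype replicate 2 (0.14) was left out.

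C1qa, C1qb and C1qc, which encode the chains that assemble into C1q, lie next to each other on the minus strand of chromosome 4 (C1qb at 136880129 to 136886187, C1qc at 136889804 to 136893065 and C1qa at 136895917 to 136898803). C1qa (ENSMUSG00000036887) had 27.3, 50.7 and 83.1 CPM across DTA-1 replicates 1 to 3 and 109, 69.3 and 32.2 CPM across isotype replicates 1 to 3. C1qb (ENSMUSG00000036905) had 25.8, 40.9 and 69.0 CPM across DTA-1 replicates 1 to 3 and 100.4, 58.7 and 22.9 CPM across isotype replicates 1 to 3. C1qc (ENSMUSG00000036896) had 24.7, 44.0 and 71.0 CPM across DTA-1 replicates 1 to 3 and 88.0, 59.7 and 26.9 CPM across isotype replicates 1 to 3. All 3 chains followed the same order from the highest library down to DTA-1 replicate 2, with isotype replicate 1 first, DTA-1 replicate 3 next and isotype replicate 2 after it. DTA-1 replicate 1 and isotype replicate 3 were the lowest, and the groups overlapped, with isotype replicate 1 above every DTA-1 library.

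The log2 fold changes of the chains were -0.39 ± 0.52 for C1qa, -0.42 ± 0.56 for C1qb and -0.32 ± 0.50 for C1qc (edgeR adjusted p = 0.739, 0.733 and 0.779). Their 95% intervals were -1.62 to 0.85, -1.74 to 0.89 and -1.51 to 0.87, so a rise or a fall within those bounds remained compatible with these libraries. Without isotype replicate 1 the 3 values were 0.10, 0.16 and 0.12. The ratio of the chains to each other varied far less than their level: the log2 ratio of C1qa to C1qc stayed within a range of 0.17 over the 6 libraries, while the highest C1qa level was 4.01 times the lowest. Among all tested genes, C1qc was the closest to C1qa in its profile over the 6 libraries, with a root mean square difference of 0.051 in centred log2 CPM. The median difference of a tested gene from C1qa was 0.80. Such a likeness over 6 libraries is a description, and the libraries differ in depth and tissue makeup for all genes alike.

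Mrc1 encodes the mannose receptor CD206, an endocytic receptor of tissue macrophages and lymphatic endothelium (ENSMUSG00000026712, chromosome 2, 14229392 to 14332057, plus strand). It had 13.6, 26.8 and 34.0 CPM across DTA-1 replicates 1 to 3 and 44.7, 36.8 and 13.3 CPM across isotype replicates 1 to 3. The order of the libraries was that of Csf1r, and the groups overlapped. For Mrc1 the log2 fold change was -0.35 ± 0.49 (edgeR adjusted p = 0.751), with a 95% interval of -1.52 to 0.82. Without isotype replicate 1 it was 0.00063. The 6 lymphatic endothelial genes, all tested, had summed levels of 119.7 to 232 CPM in DTA-1 libraries and 105.0 to 184 CPM in isotype libraries, with none at 0 in every library, and their part in the Mrc1 level was not tested.

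Cd163 encodes the scavenger receptor for haptoglobin-bound hemoglobin and marks resident macrophages (ENSMUSG00000008845, chromosome 6, 124304656 to 124330527, plus strand). Its level was 14.9, 25.6 and 30.5 CPM across DTA-1 replicates 1 to 3 and 18.4, 38.2 and 12.8 CPM across isotype replicates 1 to 3. Isotype replicate 2 was the highest, and isotype replicate 1, which led 7 of the 10 genes, ranked below DTA-1 replicates 2 and 3. Its log2 fold change was 0.032 ± 0.44 (edgeR adjusted p = 0.978), with a 95% interval of -1.02 to 1.08. Its sign was negative when counts were scaled by library totals alone (-0.18), a scaling that moved the median of all genes to -0.19, and when DTA-1 replicate 2 (-0.027), DTA-1 replicate 3 (-0.19), isotype replicate 1 (-0.094) or isotype replicate 3 (-0.23) was left out.

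Set against the other macrophage genes, Cd163 stood apart in isotype replicate 1. The log2 ratio of Cd163 to Csf1r was -0.34, -0.065 and -0.49 across DTA-1 replicates 1 to 3 and -1.70, -0.18 and -0.38 across isotype replicates 1 to 3. The log2 ratio of Cd163 to Mrc1 lay between -0.16 and 0.13 in all DTA-1 libraries and in isotype replicates 2 and 3, and was -1.28 in isotype replicate 1. The macrophage lysosomal gene Cd68 had 7.87 to 11.9 CPM in DTA-1 libraries, and 41.4 CPM in isotype replicate 1 next to 18.0 and 8.87 CPM in isotype replicates 2 and 3. The monocyte chemoattractant Ccl2 had 2.21 to 3.72 CPM in DTA-1 libraries, and 17.1 CPM in isotype replicate 1 next to 3.62 and 0.65 CPM in isotype replicates 2 and 3. The summed levels of neutrophil genes (2405 CPM) and of fibroblast genes (3207 CPM) were also highest in isotype replicate 1. Not every fibroblast gene was, since Dcn had 523 CPM there and 687 and 766 CPM in DTA-1 replicates 2 and 3. The part of neutrophils and fibroblasts was not tested.

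Ccr2 encodes the receptor that draws monocytes out of the marrow and into tissue (ENSMUSG00000049103, chromosome 9, 124101950 to 124113557, plus strand). It had 6.91, 10.7 and 12.8 CPM across DTA-1 replicates 1 to 3 and 24.3, 14.4 and 3.54 CPM across isotype replicates 1 to 3. The isotype libraries spanned a wider range than the DTA-1 libraries and enclosed it. The log2 fold change was -0.47 ± 0.62 (edgeR adjusted p = 0.735), with a 95% interval of -1.95 to 1.004, and 0.19 without isotype replicate 1.

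Lyz2 encodes lysozyme M, a bacterial cell wall hydrolase of macrophages, monocytes and neutrophils that some epithelia also secrete (ENSMUSG00000069516, chromosome 10, 117277331 to 117282321, minus strand). It had 108, 1173 and 272 CPM across DTA-1 replicates 1 to 3 and 643, 170.3 and 84.1 CPM across isotype replicates 1 to 3. DTA-1 replicate 2 and isotype replicate 1 stood far above the other 4 libraries, and the highest level was 13.95 times the lowest. For Lyz2 the log2 fold change was 0.79 ± 1.01 (edgeR adjusted p = 0.724), with a 95% interval of -1.59 to 3.17. A single library in each group set it: the value was -0.65 with DTA-1 replicate 2 left out and 2.04 with isotype replicate 1 left out.

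Lyz2 did not follow the macrophage receptor genes. The log2 ratio of Lyz2 to Csf1r was 2.51, 5.45 and 2.67 across DTA-1 replicates 1 to 3 and 3.42, 1.97 and 2.32 across isotype replicates 1 to 3. Lyz1, the neighbouring lysozyme gene best known from Paneth cells of the gut, had 7.70, 49.7 and 19.0 CPM across DTA-1 replicates 1 to 3 and 12.2, 5.62 and 6.35 CPM across isotype replicates 1 to 3. It too was highest in DTA-1 replicate 2, with a log2 fold change of 1.66 ± 0.67 (edgeR adjusted p = 0.39). The mean of the Lyz2 and Lyz1 fold changes was 1.22, and 0.037 without DTA-1 replicate 2. Of the stretches of 50 bases in Lyz2 exons, 195 of 1267 also occur in Lyz1 (15.4%), so reads of either gene could be split or dropped by the counting. The log2 ratio of Lyz2 to Lyz1 ranged from 3.71 to 5.71 over the 6 libraries.

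The 2 libraries with high Lyz2 also held high levels of genes of other cells. Lactoferrin (Ltf), a granule protein of neutrophils that glands also secrete, had 10.96, 975.3 and 16.7 CPM across DTA-1 replicates 1 to 3 and 2374, 32.2 and 21.6 CPM across isotype replicates 1 to 3. Of 10 neutrophil genes, 6 were tested, with 1 positive and 5 negative fold changes and a median of -1.10 (0.17 without isotype replicate 1, -0.60 with DTA-1 replicate 3 left out and -1.78 with DTA-1 replicate 2 left out), and their summed level lay between 20.2 and 989 CPM in DTA-1 libraries and between 32.4 and 2405 CPM in isotype libraries. The neutrophil-defining genes Ly6g, Mpo and Elane were at 0 in some libraries and reached at most 0.189 CPM in any library. The granulocyte colony-stimulating factor receptor gene Csf3r reached 3.44 CPM in DTA-1 replicate 2 and 15.4 CPM in isotype replicate 1, against 0.721 to 3.21 CPM in the other 4 libraries. Red cell genes were high in DTA-1 replicate 2 alone: Hbb-bs had 64.7, 1795 and 72.7 CPM across DTA-1 replicates 1 to 3 and 60.0, 108 and 49.996 CPM across isotype replicates 1 to 3. The 6 red cell genes, 5 of them tested, had summed levels of 103 to 2905 CPM in DTA-1 libraries and 85.3 to 172 CPM in isotype libraries. The part of neutrophils, glands and blood in the Lyz2 values was not tested.

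Cd5l encodes a secreted scavenger protein, also called apoptosis inhibitor of macrophages, that tissue macrophages make and that circulates bound to IgM (ENSMUSG00000015854, chromosome 3, 87357881 to 87371073, plus strand). It had 31, 47 and 50 reads across DTA-1 replicates 1 to 3 and 3, 17 and 4 reads across isotype replicates 1 to 3. In CPM these were 1.35, 2.21 and 2.14 across DTA-1 replicates 1 to 3 and 0.111, 0.641 and 0.144 across isotype replicates 1 to 3. Every DTA-1 library was above every isotype library, and isotype replicates 1 and 3 were at or just above the floor of 3 reads. The mean was 1.90 ± 0.48 CPM in DTA-1 libraries and 0.30 ± 0.30 CPM in isotype libraries (SD, n = 3 each). Cd5l passed the low-count filter through the DTA-1 libraries and isotype replicate 2.

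The log2 fold change of Cd5l was 2.65 ± 0.69, with a 95% interval of 1.03 to 4.28, the sole interval among the 10 genes that left out 0. It did not pass edgeR's test after adjustment over all genes (unadjusted p = 0.00615, adjusted p = 0.39). At an unadjusted p under 0.05, 5.21% of tested genes were higher and 7.52% lower in DTA-1, and Cd5l was the single marker of the 10 to reach it. DESeq2 gave 2.70 with an adjusted p of 0.0358, and limma-voom gave 2.97 with an adjusted p of 0.342. The DESeq2 call depended on the libraries used: with DTA-1 replicate 2 left out its adjusted p was 0.409, and with isotype replicate 1 left out it was 0.119. With DTA-1 replicate 3 or isotype replicate 3 left out DESeq2 gave no adjusted p, and with DTA-1 replicate 1 or isotype replicate 2 left out the adjusted p was 0.0127 and 0.00236. With edgeR, leaving out a library gave log2 fold changes between 2.28 and 3.86 and adjusted p-values of at least 0.0998.

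**Figure D2:**
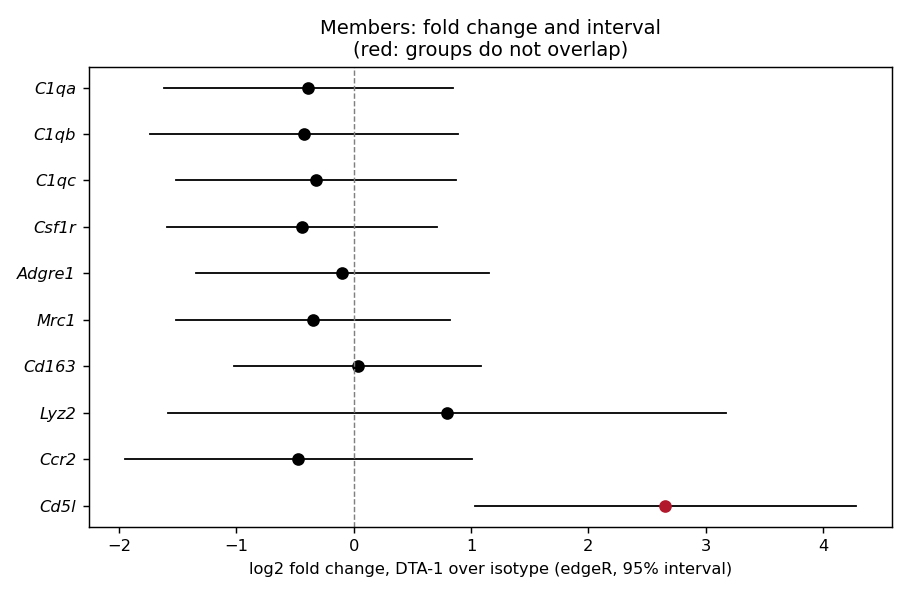
Log2 fold change of DTA-1 over isotype (horizontal axis) for each of the 10 genes with its 95% interval from edgeR. The interval of Cd5l, 1.03 to 4.28, lies above 0 and the other 9 intervals include 0.

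The profile of Cd5l over the 6 libraries was nearer to B cell genes than to any of the other 9 genes. Among its closest tested genes were Ms4a1, which encodes the B cell surface protein CD20, and the B cell receptor component Cd79a, with root mean square differences of 0.345 and 0.419 in centred log2 CPM. The nearest of the other 9 markers was Cd163 at 1.29, which ranked 2002 in closeness among all tested genes. Cd79a had 0.739, 0.942 and 1.54 CPM across DTA-1 replicates 1 to 3 and 0, 0.490 and 0 CPM across isotype replicates 1 to 3. In isotype replicates 1 and 3, where Cd5l had 3 and 4 reads, the prior count of 2 largely set these log2 CPM values. Genes this low in those libraries pass the low-count filter chiefly through DTA-1 libraries. Part of the likeness therefore follows from the filter, and it is a description alone. Of 9 B cell and plasma cell genes, the fold change was positive for all 9, the median being 2.22 (4.63 without isotype replicate 2), and 0 passed edgeR's adjusted threshold. Their summed level lay between 64.4 and 754 CPM in DTA-1 libraries and between 11.2 and 330.4 CPM in isotype libraries. Ighm, the IgM heavy chain, had 33.5, 359 and 369 CPM across DTA-1 replicates 1 to 3 and 4.79, 187 and 9.41 CPM across isotype replicates 1 to 3. The part of B cells or of tissue that holds them in the Cd5l values was not tested.

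**Figure D3:**
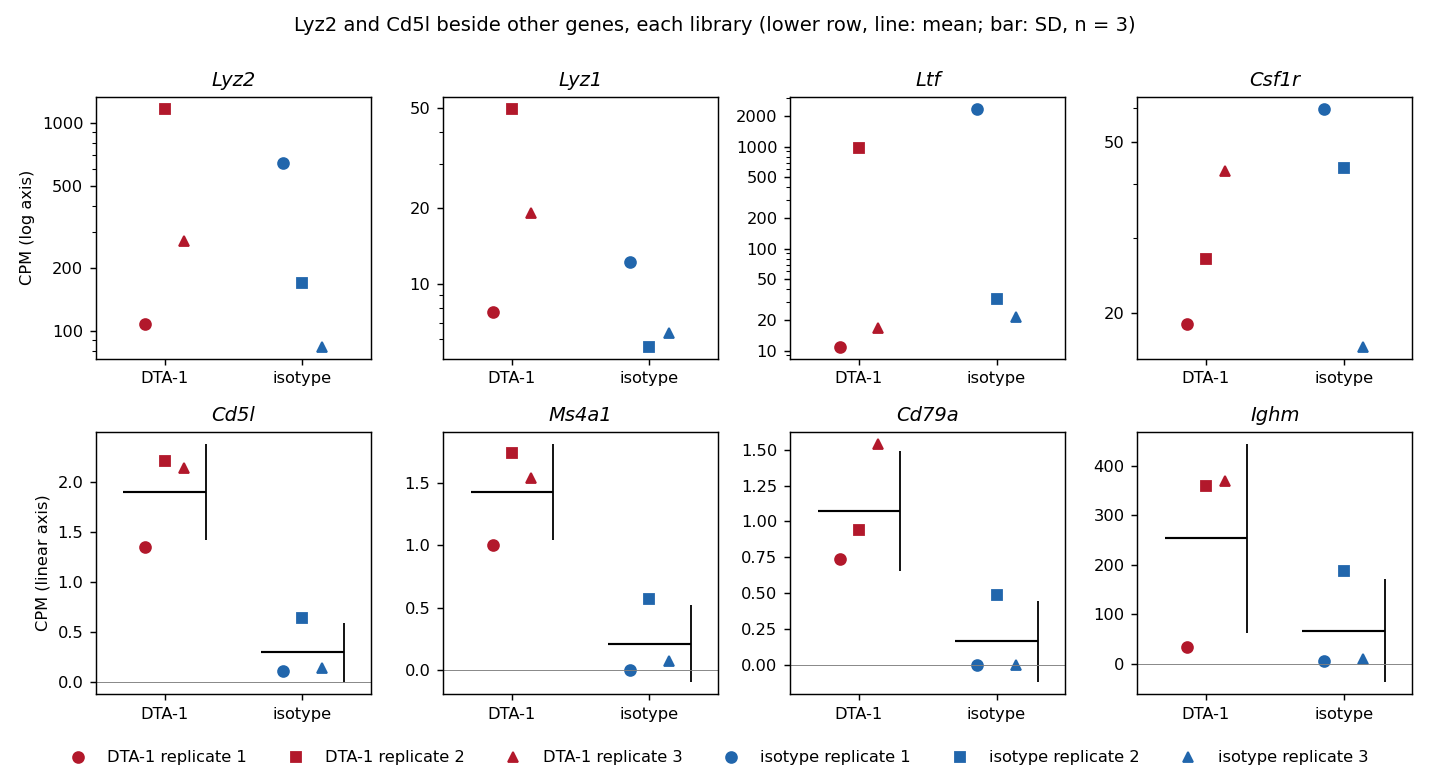
Levels in CPM (vertical axes, log scale in the upper row and linear in the lower) of Lyz2, Lyz1, Ltf and Csf1r and of Cd5l, Ms4a1, Cd79a and Ighm, with DTA-1 libraries on the left and isotype libraries on the right of each panel and 1 point per library. In the lower row lines are means and bars SD. Lyz2 and Ltf were highest in DTA-1 replicate 2 and isotype replicate 1, Cd5l, Ms4a1 and Cd79a were higher in every DTA-1 library, and Ighm overlapped between the groups.

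Levels compared between genes were set per kilobase of exon (CPM divided by the exon length in kilobases, over all annotated exons). Averaged over the 6 libraries, Lyz2 was the highest at 310.3 ± 324 (SD, n = 6), followed by C1qa at 59.6 ± 30.3, C1qb at 48.7 ± 27.0 and C1qc at 27.1 ± 13.01. Csf1r came next at 6.02 ± 2.91, then Mrc1 at 4.43 ± 2.004, Cd163 at 4.29 ± 1.80 and Adgre1 at 3.03 ± 1.32. Ccr2 at 1.79 ± 1.06 and Cd5l at 0.54 ± 0.47 were the lowest. C1qa was above C1qb in all 6 libraries, whereas Mrc1 and Cd163 did not differ beyond their spread and changed places when the longest transcript was used as the length (5.25 and 5.27). With that length C1qc was 43.6, still the lowest of the C1q chains.

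**Figure D4:**
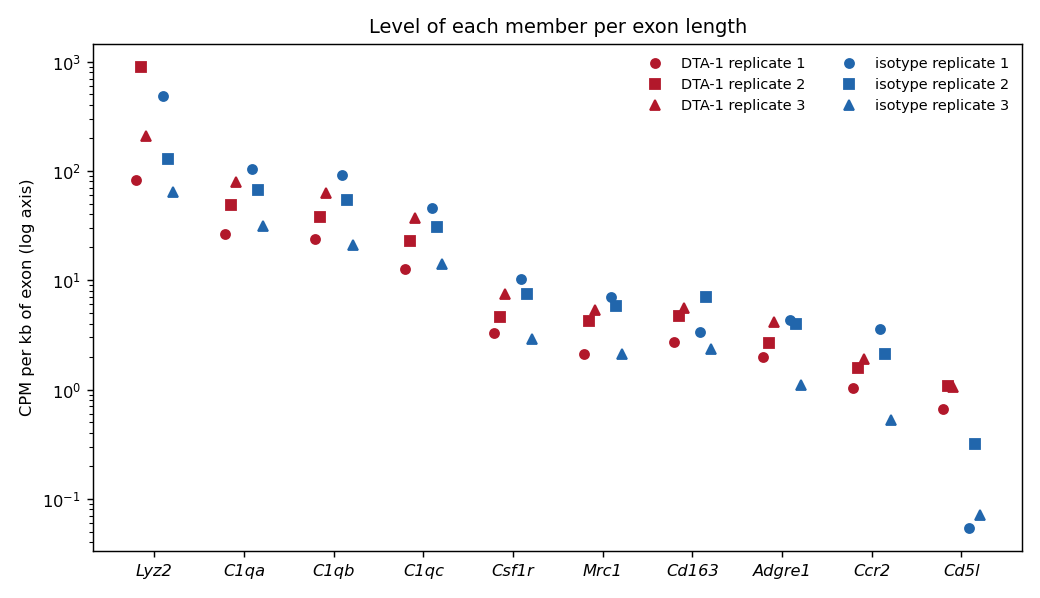
CPM per kilobase of exon (vertical axis, log scale) of each of the 10 genes, ordered by mean level, with 1 point per library for DTA-1 and isotype. Lyz2 averaged 310.3, the C1q chains 27.1 to 59.6, and the other 6 genes 6.02 or less.

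The libraries ranked alike for most of the 10 genes, and the ranking crossed the groups. DTA-1 replicate 1 and isotype replicate 3 were the 2 lowest libraries for 9 of the 10 genes, and for 10% of all tested genes. Isotype replicate 1 was the highest for 7 of the 10, and for 25.5% of all tested genes. The sole exception to the low rank of that pair was Cd5l. The mean of 8 fibroblast genes followed a like order. Their mean log2 CPM was 6.14, 6.95 and 7.55 across DTA-1 replicates 1 to 3 and 7.90, 6.95 and 6.17 across isotype replicates 1 to 3. The single genes differed, with 5 positive and 3 negative fold changes and a median of 0.12. Col3a1 had 148, 158 and 314 CPM across DTA-1 replicates 1 to 3 and 1122, 229 and 72.4 CPM across isotype replicates 1 to 3. Dcn did not follow that order, at 327, 687 and 766 CPM and at 523, 459 and 463 CPM. All 8 fibroblast genes were tested, their summed level lay between 834 and 2053 CPM in DTA-1 libraries and between 949 and 3207 CPM in isotype libraries, none was at 0, and their part in the ranking was not tested.

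**Figure D5:**
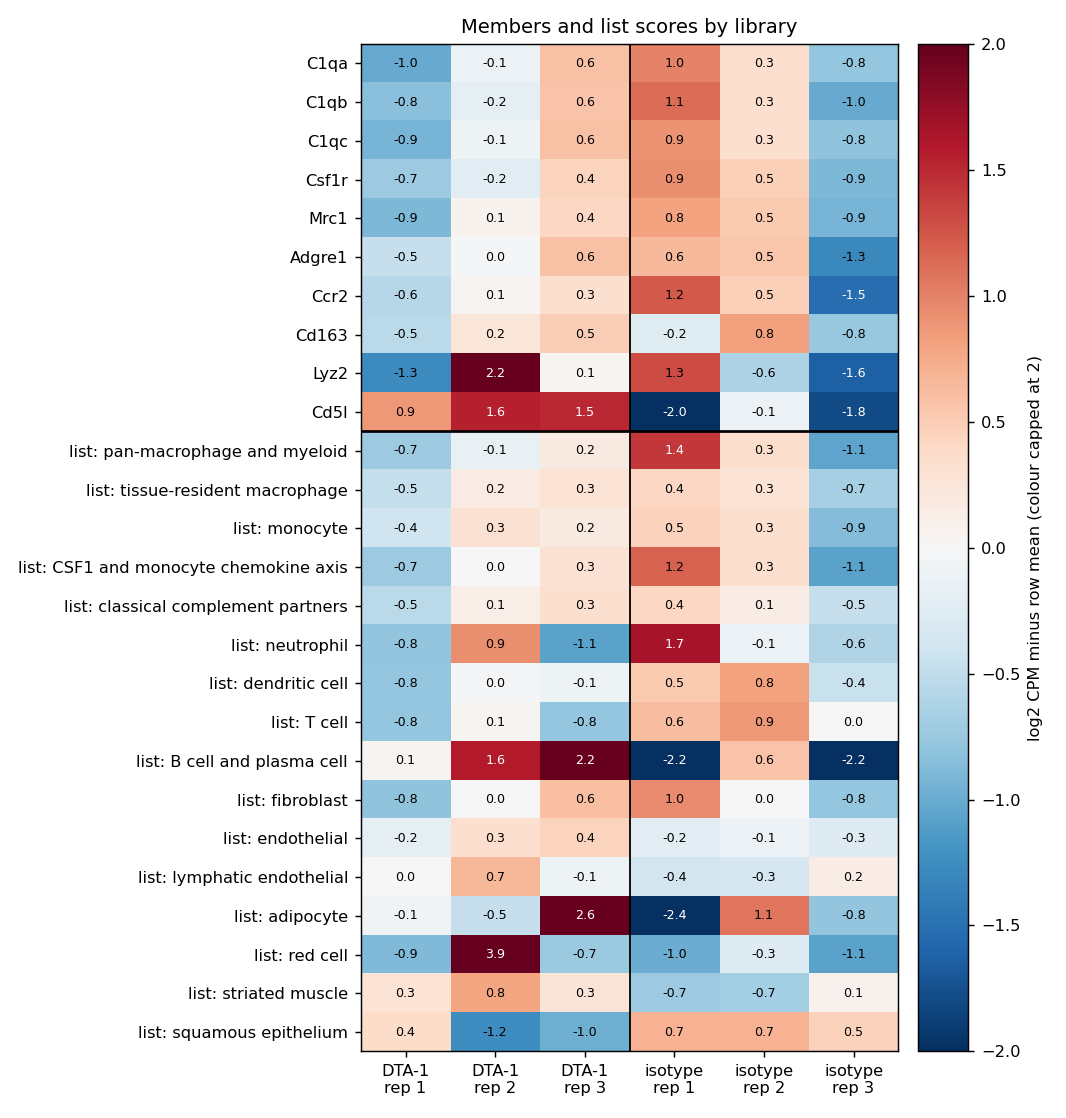
Log2 CPM minus the mean of the 6 libraries for each of the 10 genes, and mean log2 CPM of the marker lists treated the same way (rows), in DTA-1 replicates 1 to 3 and isotype replicates 1 to 3 (columns). Colours stop at 2 in either direction and the numbers give the values. C1q, Csf1r, Mrc1, Adgre1 and Ccr2 share a pattern with the fibroblast list, and Lyz2 is high in DTA-1 replicate 2 and isotype replicate 1. Cd5l and the B cell list are both lowest in isotype replicates 1 and 3, but the groups overlap for the B cell list alone of these.

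Beyond the 10 genes, 14 other macrophage and myeloid genes were compared as a list. The fold change was negative for all 14, the median being -0.78, and 0 passed edgeR's adjusted threshold. That median rested on isotype replicate 1, being 0.026 without it, and was -1.18 without isotype replicate 3. Each of the 14 was highest in isotype replicate 1, and DTA-1 replicate 1 and isotype replicate 3 were the 2 lowest for 11 of them. Cd68 had a log2 fold change of -1.17 ± 0.53, the leukocyte phosphatase Ptprc -0.85 ± 0.55, the signalling adaptor Tyrobp -0.83 ± 0.70, the myeloid transcription factor Spi1 -0.76 ± 0.58 and the IgG receptor Fcgr1 -0.48 ± 0.75. Their edgeR adjusted p-values lay between 0.40 and 0.78. Mertk, a receptor for apoptotic cells, was named after its values were seen because it was the single gene of the list that was lower in every DTA-1 library, at 5.78, 5.65 and 6.63 CPM across DTA-1 replicates 1 to 3 and 10.5, 10.1 and 6.82 CPM across isotype replicates 1 to 3. That pattern held for 9.38% of tested genes.

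Taken relative to the mean log2 CPM of these 14 genes, all 10 macrophage and monocyte genes had a positive mean difference, as did 80% of tested genes. The log2 ratio of Ccr2 to that mean was 0.53, 0.57 and 0.51 across DTA-1 replicates 1 to 3 and 0.19, 0.51 and -0.096 across isotype replicates 1 to 3. The lowest DTA-1 value and the highest isotype value were the same to 2 decimals. The ratio of Cd5l to that mean was -1.76, -1.66 and -2.03 across DTA-1 replicates 1 to 3 and -6.80, -3.82 and -4.10 across isotype replicates 1 to 3. For each the exact two-sided permutation test gave p = 0.1, the smallest that 3 against 3 libraries allow, and 0.833 after adjustment over the 25 log ratios tested. Every DTA-1 library was above every isotype library on this scale for 1.05% of tested genes. The mean of the 14 genes was itself highest in isotype replicate 1 (4.42) and lowest in isotype replicate 3 (1.95). Subtracting it therefore tends to make the groups overlap for a gene that does not follow it. For that reason the 1.05% cannot say how rare the pattern is among macrophage genes.

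The ligands and chemokines that feed these cells gave 2 positive and 10 negative fold changes among 12 tested genes of 13, with a median of -0.73 (0.25 without isotype replicate 1) and 0 passing edgeR's adjusted threshold. Csf1 differed little, at 18.3, 25.7 and 26.7 CPM across DTA-1 replicates 1 to 3 and 29.6, 21.2 and 17.9 CPM across isotype replicates 1 to 3 (log2 fold change 0.039 ± 0.25). Il34, the ligand that epithelia make, had 7.57, 6.27 and 7.40 CPM across DTA-1 replicates 1 to 3 and 8.11, 12.7 and 18.0 CPM across isotype replicates 1 to 3. Every DTA-1 library was below every isotype library for Il34, a pattern seen in 9.38% of tested genes, and its log2 fold change was -0.87 ± 0.32 (edgeR adjusted p = 0.39). The chemokines Ccl2 and Ccl7, ligands of CCR2, had log2 fold changes of -1.36 ± 0.99 and -0.86 ± 0.94, and the fractalkine receptor Cx3cr1 -0.48 ± 0.74. The summed level of the 12 squamous epithelial genes, given above, was also lower in every DTA-1 library than in every isotype library. Taken singly, 5 of the 12 squamous genes had that pattern. Their part in the Il34 values was not tested.

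The classical complement partners of C1q were split evenly, with 6 positive and 6 negative fold changes among 12 genes, a median of 0.027 and 0 passing. The median lay between -0.18 (isotype replicate 3 left out) and 0.21 (DTA-1 replicate 1 left out), and was negative also without DTA-1 replicate 2 or 3 and with library totals alone (-0.16). The proteases C1ra and C1s1 had log2 fold changes of 0.072 ± 0.35 and -0.015 ± 0.29, C4b -0.11 ± 0.44 and C3 0.30 ± 0.37 (edgeR adjusted p between 0.71 and 0.98). C3 had 374, 826 and 795 CPM across DTA-1 replicates 1 to 3 and 410.3, 719 and 488 CPM across isotype replicates 1 to 3.

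Other genes of tissue-resident macrophages gave 6 positive and 8 negative fold changes among 14 tested of 15, with a median of -0.15 and 0 passing. The median lay between -0.41 (isotype replicate 3 left out) and 0.24 (DTA-1 replicate 1 left out), and was positive also without isotype replicate 1 or 2. Timd4, a phosphatidylserine receptor of long-lived resident macrophages, had 1.39, 2.73 and 1.33 CPM across DTA-1 replicates 1 to 3 and 0.627, 0.604 and 0.938 CPM across isotype replicates 1 to 3. Every DTA-1 library was above every isotype library, a pattern seen in 8.6% of tested genes, and the log2 fold change was 1.32 ± 0.44 (edgeR adjusted p = 0.39). The transcription factor Maf went the other way, with 57.8, 58.2 and 45.2 CPM across DTA-1 replicates 1 to 3 and 70.7, 81.2 and 59.2 CPM across isotype replicates 1 to 3, a log2 fold change of -0.39 ± 0.18 (edgeR adjusted p = 0.41). Of tested genes, 9.38% were likewise lower in every DTA-1 library. The folate receptor Folr2 had a log2 fold change of -0.30 ± 0.65 and the hyaluronan receptor Lyve1, shared with lymphatic vessels, 0.24 ± 0.21, both with overlapping groups.

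Monocyte genes gave 7 positive and 5 negative fold changes among 12 tested of 14, with a median of 0.031 and 0 passing. The median lay between -0.26 (isotype replicate 3 left out) and 0.31 (DTA-1 replicate 1 left out), and was negative also without DTA-1 replicate 2 or 3 or isotype replicate 2 and with library totals alone (-0.17). Ly6c2, which marks the classical monocytes of the mouse, stayed below the low-count filter, at 0.13 to 0.68 CPM in DTA-1 libraries and 0.22 to 0.68 CPM in isotype libraries. Plac8 and Chil3 had log2 fold changes of 0.041 ± 0.70 and -0.13 ± 1.16. Spn, named after its values were seen, was lower in every DTA-1 library, at 1.70, 1.93 and 2.31 CPM across DTA-1 replicates 1 to 3 and 3.46, 5.58 and 3.75 CPM across isotype replicates 1 to 3 (log2 fold change -1.11 ± 0.34, edgeR adjusted p = 0.39). That pattern held for 9.38% of tested genes.

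Scavenger genes of red pulp, liver and marginal zone macrophages gave 3 positive and 4 negative fold changes among 7 tested of 10, with a median of -0.15 (0.41 without isotype replicate 1, 0.40 with isotype replicate 2 left out and 0.11 with DTA-1 replicate 1 left out) and 0 passing. Marco, a scavenger receptor of marginal zone and alveolar macrophages, had 0.522, 8.06 and 0.385 CPM across DTA-1 replicates 1 to 3 and 0.147, 0.302 and 0.289 CPM across isotype replicates 1 to 3, and did not pass the low-count filter. DTA-1 replicate 2, which also held the high red cell and Lyz2 levels, stood alone in Marco. Vsig4, a complement receptor of resident macrophages, had a log2 fold change of 0.26 ± 0.53. Spic, the transcription factor of red pulp macrophages, reached at most 0.257 CPM, and Clec4f, which marks Kupffer cells, was at 0 in all 6 libraries.

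The nearest profiles among all tested genes were mostly other myeloid genes, with root mean square differences in centred log2 CPM over the 6 libraries. Csf1r was nearest to Gpr183 (0.102), followed by C1qb (0.125) and C1qc (0.132). For C1qa the third was Pld4 (0.149), and for C1qc the second was Pltp (0.118). Adgre1 was nearest to Cfp (0.104), Folr2 (0.115) and Ltc4s (0.128), and Mrc1 to Hacd4 (0.089), Psmb8 (0.106) and Themis2 (0.139). Cd163 was nearest to Siglec1 (0.130), which encodes the macrophage sialoadhesin, then to Gbp5 (0.155) and Ttyh1 (0.167). Ccr2 was nearest to Clec4a1 (0.147), the integrin gene Itgam (0.154) and the oxidase subunit gene Ncf1 (0.154). Lyz2 had no close neighbour, with Fmod (0.518) and Ifitm1 (0.594) among the nearest.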

How the data were processed

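Polyadenylated RNA was sequenced from 6 libraries, and the authors deposited unnormalized whole-number read counts for every Ensembl gene. The submitters' processing notes name HTSeq 0.6.1p1, STAR, DESeq2 1.14.1 and cutadapt 1.13 with the build mm10; roles, order and strand settings: not given in the sources used here. Positions come from GENCODE M21 on GRCm38, the assembly named mm10 (67 IDs without a position, 153 without a symbol). In R 4.3.3, low counts were removed by filterByExpr (minimum count 10, minimum total 15), TMM gave the scaling, and edgeR 4.0.16 compared treatments by its robust quasi-likelihood test; p-values were adjusted by Benjamini and Hochberg and judged at 0.05. Log2 CPM used a prior count of 2, and list scores are mean log2 CPM. DESeq2 1.42.0 and limma-voom (limma 3.58.1), other scalings and filters, a replicate block and left-out libraries were the alternatives. Log ratios were compared by exact permutation. Figures were drawn with Python 3.11.15 and matplotlib 3.10.9.

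On simulated data with 15526 genes for DTA-1 against isotype, edgeR recovered 4% of 2-fold and 65% of 4-fold changes with 1 false call of 70, and DESeq2 28% and 89% with 57 false calls of 174. The genes and lists were chosen with earlier results of these data known. Genes named with values are the 10 markers, a list of ligands, partners and markers, the 2 highest genes of each further list, and the 3 nearest profiles of each marker; a few genes that this rule selects are not reported here. Floors and intervals cover counting error or the spread between libraries only.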

Additional observations from a re-analysis of the deposited data

How the results depend on the processing

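Of 180 values of the 10 genes under 18 alternative settings, 155 kept the direction of the reported value and 25 reversed it. The number of genes called was 0 with edgeR, against 201 by DESeq2 and 0 to 601 when a library was left out, the 601 without DTA-1 replicate 1. Of the 10 genes 0 were called, against 1 by DESeq2 (Cd5l) and 0 under each left-out library. Their median, -0.34, ranged from -0.66 to 0.14 over the single left-out libraries. Over the left-out libraries and pairs of libraries, the log2 fold change ranged from -0.85 to 0.12 for C1qa, from -0.87 to 0.21 for C1qb, from -0.76 to 0.14 for C1qc, from -0.81 to 0.035 for Csf1r, from -0.48 to 0.26 for Adgre1, from -0.75 to 0.00063 for Mrc1, from -0.29 to 0.62 for Cd163, from -1.07 to 2.04 for Lyz2 and from -0.94 to 0.19 for Ccr2. Of these upper values, those of C1qa, C1qb, C1qc, Csf1r and Adgre1 came without isotype replicate 1 and DTA-1 replicate 2, a pair chosen after seeing the data, where Cd163 was -0.17 and Ccr2 0.14. The lowest Cd163 and Lyz2 values came without isotype replicate 3 and DTA-1 replicate 2. Reversals under other settings were -0.18 for Cd163 with library totals alone and 0.079 for Adgre1 with limma-voom. The cause was not tested. The sources used here do not say whether replicate numbers pair the samples. Deviations of same-numbered DTA-1 and isotype libraries from their group means correlated at 0.017, -0.33 and -0.086. Those of libraries with unlike numbers correlated between -0.18 and 0.36. With 3 libraries per group these values cannot decide whether the samples were paired. With replicate number as a block, 0 genes were called and 1632 had an unadjusted p under 0.05, the median of the 10 genes was -0.23, and Adgre1 was 0.0089. At this depth the Cd5l values of isotype replicates 1 and 3 rest on 3 and 4 reads.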

Other observations

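Macrophage activation genes gave no call by edgeR. Of 8 tested genes of classical activation, 8 had a negative fold change, the median being -0.81 (-0.50 without isotype replicate 1). Irf5, a transcription factor of inflammatory macrophages, had 10.96, 11.1 and 15.9 CPM across DTA-1 replicates 1 to 3 and 23.7, 19.5 and 17.8 CPM across isotype replicates 1 to 3. Every DTA-1 library was thus below every isotype library, as for 9.38% of tested genes (log2 fold change -0.68 ± 0.23, edgeR adjusted p = 0.39). The cytokine Il1b had a log2 fold change of -0.99 ± 0.77. Of 8 tested genes of alternative activation, 4 were positive and 4 negative, with a median of -0.20. That median was -0.77 with DTA-1 replicate 3 left out, -0.58 with isotype replicate 3 left out, 0.15 with isotype replicate 2 left out and 0.079 with DTA-1 replicate 1 left out. The transglutaminase Tgm2 had 515, 580.0 and 532 CPM across DTA-1 replicates 1 to 3 and 392, 267 and 406 CPM across isotype replicates 1 to 3 (log2 fold change 0.61 ± 0.23, edgeR adjusted p = 0.39), and the arginase Arg1 had a log2 fold change of -1.02 ± 0.48. The chemokine Ccl22, named after its values were seen, was lower in every DTA-1 library (-1.56 ± 0.37, edgeR adjusted p = 0.39, DESeq2 adjusted p = 0.0417). As with Irf5, 9.38% of tested genes did the same, and the DESeq2 call of Ccl22 was not repeated with libraries left out.

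Other immune lists went in different directions, with 0 calls by edgeR. The 9 tested T cell genes all had a negative fold change, the median being -0.92 (-0.54 without isotype replicate 2), and Cd5 and Cd2 had -1.26 ± 0.58 and -0.26 ± 0.57. Tnfrsf18, which encodes GITR, had 1.39, 1.46 and 0.513 CPM across DTA-1 replicates 1 to 3 and 2.84, 2.34 and 0.649 CPM across isotype replicates 1 to 3 (-0.79 ± 0.65, edgeR adjusted p = 0.576). Dendritic cell genes gave 2 positive and 5 negative values, with the integrin Itgax at -2.76 ± 0.93 and the transcription factor Zbtb46 at 0.41 ± 0.26. The neutrophil chemokine receptor Cxcr2, named after its values were seen, was lower in every DTA-1 library (-1.84 ± 0.39, DESeq2 adjusted p = 0.00568, edgeR adjusted p = 0.39). That pattern held for 9.38% of tested genes, and the DESeq2 call of Cxcr2 was not repeated with libraries left out. The mast cell genes Kit and Tpsb2 had -0.19 ± 0.71 and -0.18 ± 0.82, and the list median of 6 tested genes was -0.16. It was -0.998 with DTA-1 replicate 3 left out and 0.87 with isotype replicate 2 left out, and was positive also without DTA-1 replicate 1 (0.26) or DTA-1 replicate 2 (0.14). Of the remaining lists, the 7 endothelial genes were all positive (median 0.34, or 0.21 without DTA-1 replicate 3, Pecam1 0.34 ± 0.17, Cdh5 0.25 ± 0.20), as were 7 tested adipocyte genes (median 1.23, Fabp4 1.04 ± 0.78, Cfd 1.39 ± 0.80). The adipocyte median rested on DTA-1 replicate 3, being -0.048 without it, and was 2.35 without isotype replicate 2.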
